A study of Rattus norvegicus with 9 samples.

Results

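Elastic fiber and fibulin genes were examined in the mesenchymal stem cells grown from 3 fat depots of the rat. The 10 genes, Eln, Fbn1, Fbn2, Fbln1, Fbln2, Fbln5, Efemp1, Efemp2, Mfap4, and Mfap5, were taken by their symbols from the 35362 genes of the deposited count table, and each symbol was found once. Of these, 9 passed the filter on low counts and were among the 14770 genes tested, and Mfap4 had 0 counts in every sample. Fbln2 was about 8 times higher in the cells of perirenal and epididymal fat than in those of subcutaneous fat, whereas Efemp1 and Efemp2 were lower in both. Eln was higher in epididymal cells alone among the 3 groups. Fbn2 was 2.29 times higher in perirenal than in subcutaneous cells. Changes of less than 2-fold included lower Fbn1 in perirenal cells and lower Mfap5 in both perirenal and epididymal cells.

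SASCs came from the subcutaneous fat of the groin, PASCs from perirenal fat, and EASCs from epididymal fat, all of male Sprague Dawley rats aged 6 weeks that were fasted before the fat was taken. Each group has 3 samples of bulk RNA taken at passage 3 in serum-containing high glucose medium. The study's methods name 6 replicates in each group, more than the 3 samples found here. All sample labels carry the same prefix, sd1, whose meaning is not given. RNA was drawn from wells of culture plates, and whether wells of 1 group trace back to different animals is not given in the sources used here. The p-values therefore measure only the spread between these samples, which may be technical. In such bulk samples, fewer cells of a type and less RNA per cell cannot be told apart.

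Total counts ranged from 17591916 to 30299032 per sample. Genes of ribosomal RNA took 10.4% to 15.5% of the counts for SASCs, 22.4% to 32.9% for PASCs, and 15.9% to 40.3% for EASCs. Counts were therefore scaled by TMM, a method that takes most genes as unchanged and is little affected by a few abundant ones, and are given as CPM (counts relative to the scaled library size). A gene at 3 counts stood at 0.104 to 0.159 CPM, a limit that covers counting error only. Thy1, Cd44, Nt5e, Eng, Itgb1, Pdgfra, and Pdgfrb, which mark mesenchymal stem cells, were all above 3 counts in at least 1 sample of each group, and their summed level was 4135 to 4262 CPM for SASCs, 3784 to 3960 for PASCs, and 4958 to 5027 for EASCs. These sums covered unequal changes, since Pdgfra averaged 1543, 278, and 235 CPM in the 3 groups in this order, Itgb1 1046, 1814, and 2951 CPM, and Eng 60.0, 89.8, and 204 CPM.

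Markers of other cells moved with the groups. The summed level of 6 smooth muscle markers was 192.5 to 205.5 CPM for SASCs, 2921 to 3219 for PASCs, and 6424 to 6787 for EASCs, and all 6 were upregulated in both PASCs and EASCs as differentially expressed genes (DEGs, with a fold change above 2 and adjusted p under 0.05 by edgeR's quasi-likelihood test). Of all genes tested, 12% were upregulated DEGs in PASCs and 13.6% in EASCs. The 8 mesothelial markers summed to 20.0 to 21.5 CPM for SASCs, 98.3 to 105.6 CPM for PASCs, and 132 to 143 CPM for EASCs, with 6, 7, and 7 of the 8 above 3 counts in at least 1 sample, Krt18 at 0 in SASCs, and Krt19 at 0 in PASCs. The 5 leukocyte markers summed to 39.2 to 41.3, 60.4 to 62.5, and 90.6 to 92.1 CPM for SASCs, PASCs, and EASCs, and the 4 endothelial markers to 38.8 to 41.6, 10.96 to 13.24, and 26.7 to 29.7 CPM. Of the endothelial markers, Kdr averaged 18.1, 1.67, and 3.75 CPM, Pecam1 10.6, 1.11, and 6.47 CPM, and Cdh5 9.20, 1.13, and 9.77 CPM, whereas Tek averaged 2.55, 8.30, and 8.08 CPM. For the 4 adipocyte markers the sums were 55.3 to 60.7, 13.5 to 14.4, and 5.64 to 6.20 CPM in the same order, with Cidec at 2, 4, and 2 counts in EASCs and Lep at 0 to 6 counts over the 9 samples. The part of these cells or states in the results below was not tested.

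Elastic fibers give tissues their recoil. They are built from a core of elastin, which is secreted as the monomer tropoelastin and crosslinked by lysyl oxidases, on a sheath of microfibrils made of fibrillins with associated glycoproteins. The fibulins are a family of calcium-binding matrix glycoproteins that bridge tropoelastin, fibrillins, crosslinking enzymes, and basement membrane proteins, and stromal cells of fat are among the cells that secrete them.

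Compared per length of the gene model, as FPKM (CPM for each kilobase of it), the 9 detected genes spanned a wide range of levels in SASCs. Mfap5 was the highest at 368.9 ± 11.6 FPKM (SD, n = 3), followed by Efemp2 at 271 ± 7.84, Fbn1 at 124 ± 7.56, Fbln2 at 63.3 ± 2.40, Fbln5 at 27.7 ± 0.471, Fbln1 at 24.3 ± 0.199, Efemp1 at 20.9 ± 0.630, Fbn2 at 1.11 ± 0.0847, and Eln at 0.532 ± 0.113 FPKM. Eln was thus the lowest of the detected genes, higher per length than only 17% of all genes tested. In PASCs and EASCs Fbln2 took the highest place, at 546 ± 27.0 and 508 ± 26.5 FPKM (SD, n = 3 each), above 99.2% of all genes tested in either group. Efemp1 fell to the eighth place in PASCs, at 0.980 ± 0.0405 FPKM, and to the ninth in EASCs, at 0.337 ± 0.131 FPKM, below Eln. In each group the samples of neighbors in this order did not overlap.

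**Figure D1:**
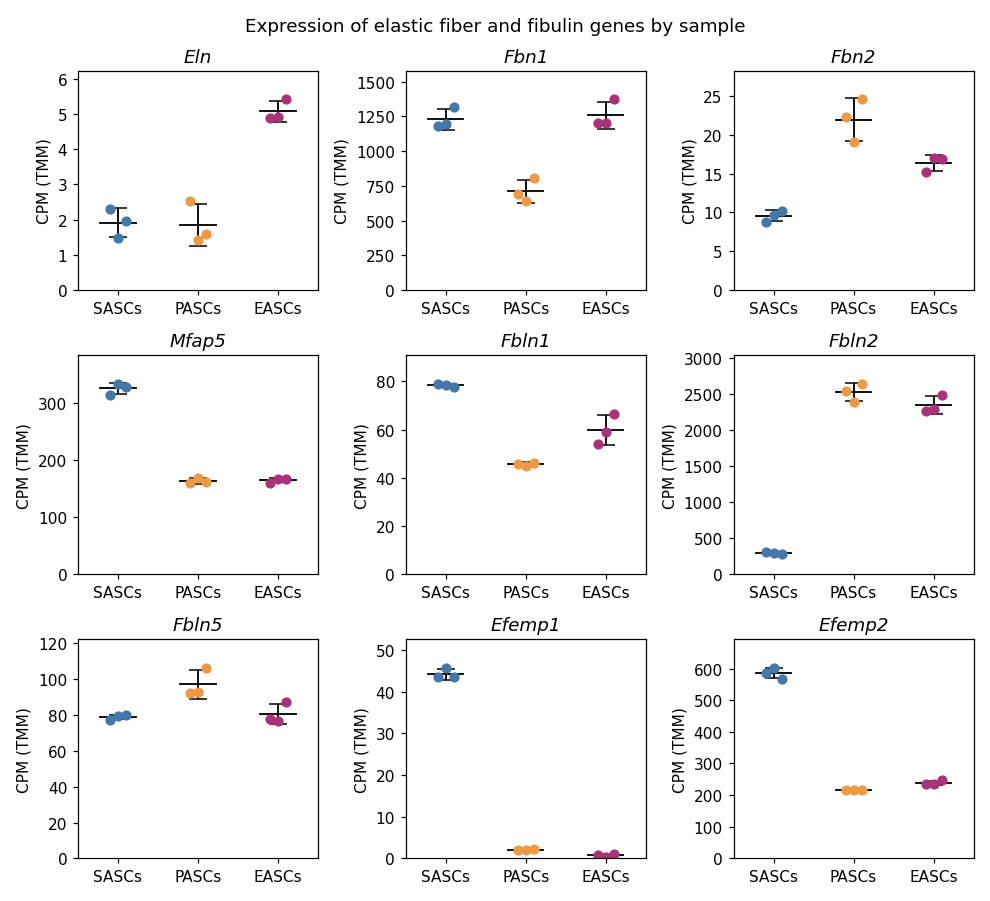
CPM after TMM scaling (vertical axis of each panel, from 0) of the 9 detected genes in SASCs, PASCs, and EASCs. Points are the 3 samples of a group, and black lines give the mean and SD. Fbln2 lies between 282 and 304 CPM for SASCs and at 2261 CPM or more in the other samples, Efemp1 is highest in SASCs, and Eln is highest in EASCs.

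Between EASCs and SASCs, 4 of the 9 genes tested were DEGs, Eln and Fbln2 upregulated and Efemp1 and Efemp2 downregulated. Of all 14770 genes tested, 27.8% were DEGs in this comparison. Between PASCs and SASCs there were also 4 DEGs, Fbn2 and Fbln2 upregulated and Efemp1 and Efemp2 downregulated, against 26.9% of all genes. Both comparisons share the SASCs samples. Between EASCs and PASCs, Eln was a DEG with higher and Efemp1 a DEG with lower expression in EASCs, against 7.39% of all genes, 5.19% higher and 2.2% lower. At any fold change, 7, 8, and 7 of the 9 genes passed the adjusted p in these 3 comparisons, where 69.7%, 69.2%, and 30.7% of all genes did. The samples of the groups did not overlap for 7 of the 9 genes between EASCs and SASCs, where this held for 72.1% of all genes, for 8 between PASCs and SASCs (71.6%), and for 7 between EASCs and PASCs (41.2%). The median log2 fold change of the 9 genes was 0.03 for EASCs and -0.78 for PASCs against SASCs and 0.01 between EASCs and PASCs, while that of all genes was 0.01, -0.01, and -0.01. Without TMM, scaling by total counts gave a median of all genes of -0.39 for EASCs and -0.33 for PASCs against SASCs, and the share of higher genes among all DEGs went from 48.8% to 28.3% and from 44.7% to 28.5%.

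**Figure D2:**
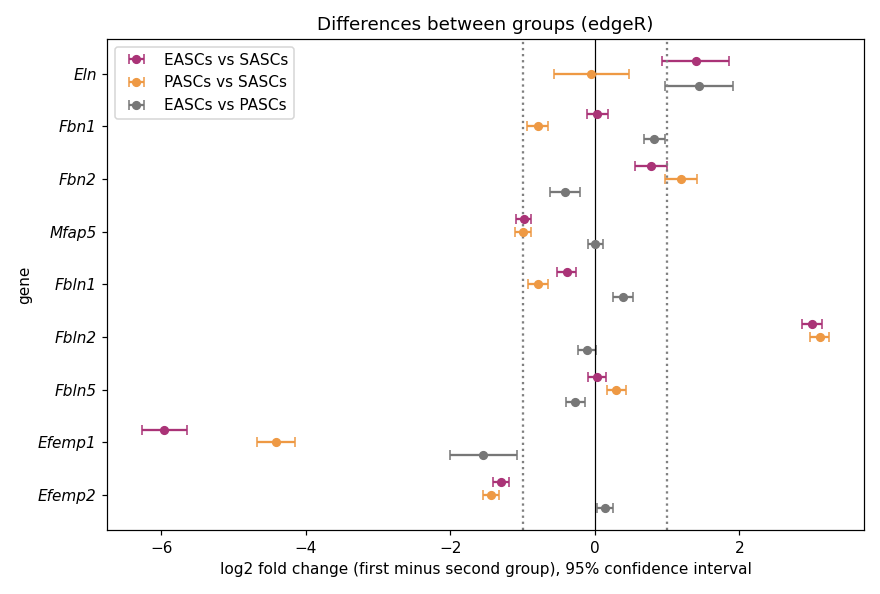
Log2 fold changes (horizontal axis) of the 9 detected genes (vertical axis) for EASCs against SASCs, PASCs against SASCs, and EASCs against PASCs, with 95% confidence intervals from edgeR. Dotted lines mark a fold change of 2 in each direction, past which Fbln2 and Efemp1 lie the farthest, at 3.01 and -5.96 for EASCs against SASCs.

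Fbln2 encodes fibulin-2, a protein of basement membranes and vessel walls that binds fibronectin and fibrillin-1. It lies at chr4:122835237-122895127 of rn6, plus strand. The 3 SASCs samples had 8743, 6845, and 5775 counts, the PASCs samples 66334, 63986, and 49864, and the EASCs samples 53993, 56568, and 55589. After scaling they were 304, 290.5, and 282 CPM for SASCs, 2538, 2392, and 2641 for PASCs, and 2261, 2293, and 2487 for EASCs. Every sample of PASCs and EASCs was far above every sample of SASCs. The log2 fold change against SASCs was 3.11 for PASCs (standard error 0.0646, adjusted p = 1.46e-24, edgeR) and 3.01 for EASCs (standard error 0.0643, adjusted p = 2.05e-24). It ranked as number 276 from the highest of 14770 genes in PASCs and 353 in EASCs. Between EASCs and PASCs the log2 fold change was -0.10, with a 95% confidence interval of -0.23 to 0.02 (adjusted p = 0.199), and the samples overlapped.

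Efemp1, the gene of fibulin-3, which is abundant in fascia and binds TIMP-3, an inhibitor of metalloproteinases, is at chr14:113202386-113294993 of rn6, plus strand. Its counts were 1249, 1077, and 889 for SASCs, 53, 54, and 41 for PASCs, and 19, 10, and 21 for EASCs. As CPM these were 43.4, 45.7, and 43.4 for SASCs, 2.03, 2.02, and 2.17 for PASCs, and 0.795, 0.405, and 0.939 for EASCs. The 3 groups were fully apart, and the level in each EASCs sample rested on few reads. Efemp1 was 21.4 times lower in PASCs than in SASCs (log2 fold change -4.42, standard error 0.127, adjusted p = 1.77e-21, edgeR). In EASCs it was 62.1 times lower (log2 fold change -5.96, standard error 0.151, adjusted p = 9.65e-23), number 78 from the lowest of the 14770 genes. EASCs also lay below PASCs (log2 fold change -1.54, standard error 0.226, adjusted p = 4.50e-06).

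Efemp2 encodes fibulin-4, which brings lysyl oxidase to tropoelastin and is needed for elastic fibers to form. It lies at chr1:220853697-220861420 of rn6, plus strand. Its expression was 586, 602.5, and 569 CPM for SASCs, 217, 217, and 217 for PASCs, and 235, 235, and 246 for EASCs. SASCs were above all other samples, and the samples of PASCs were all below those of EASCs by a small margin. The log2 fold change was -1.43 for PASCs (standard error 0.0527, adjusted p = 3.98e-19, edgeR) and -1.29 for EASCs against SASCs (standard error 0.0524, adjusted p = 3.78e-18). EASCs exceeded PASCs by 0.14 on the log2 scale (edgeR, adjusted p = 0.0406). It did not pass in 8 of the 9 fits that left out a sample, without the filter on low counts (adjusted p = 0.0665), or without TMM (adjusted p = 0.868).

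These 3 fibulin genes were DEGs in both PASCs and EASCs against SASCs, and for this reason the 300 bases around their start sites are shown. The sequences are from RefSeq on GRCr8, a later build than that of the counts, each from 250 bases before to 50 bases after the annotated start, 5′ to 3′ on the gene's strand. They cover chr4:125261409-125261708 for Fbln2, chr14:106811614-106811913 for Efemp1, and chr1:212211472-212211771 for Efemp2, all on the plus strand. Capitals mark matches to any of the motifs TATAAA (the box bound by TBP), GGGCGG (the GC box that Sp1 binds), CATTCC (a core that TEAD factors bind), TGACTCA (an AP-1 site), and CAGACA (found in SMAD sites) or to the CArG box, searched on both strands.
Fbln2: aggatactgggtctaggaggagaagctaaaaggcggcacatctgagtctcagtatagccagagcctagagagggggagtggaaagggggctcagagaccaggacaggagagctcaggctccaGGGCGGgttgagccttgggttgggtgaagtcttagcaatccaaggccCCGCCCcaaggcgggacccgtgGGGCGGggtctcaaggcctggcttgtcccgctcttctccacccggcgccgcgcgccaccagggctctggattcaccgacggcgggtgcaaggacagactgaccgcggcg
Efemp1: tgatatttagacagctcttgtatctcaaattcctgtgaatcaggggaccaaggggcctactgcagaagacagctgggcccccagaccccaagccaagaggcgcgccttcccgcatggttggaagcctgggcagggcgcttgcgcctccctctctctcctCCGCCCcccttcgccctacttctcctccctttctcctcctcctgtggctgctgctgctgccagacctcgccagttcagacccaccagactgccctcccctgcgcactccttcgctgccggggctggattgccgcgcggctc
Efemp2: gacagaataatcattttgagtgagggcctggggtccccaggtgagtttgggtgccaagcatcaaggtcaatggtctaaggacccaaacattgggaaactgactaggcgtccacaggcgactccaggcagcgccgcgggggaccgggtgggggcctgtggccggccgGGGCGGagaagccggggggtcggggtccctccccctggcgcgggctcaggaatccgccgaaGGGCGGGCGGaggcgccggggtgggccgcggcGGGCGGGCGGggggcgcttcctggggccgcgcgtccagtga

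The only matches in these 3 windows were to GGGCGG, with 3 in Fbln2, 1 in Efemp1, and 5 in Efemp2, where 2 pairs of matches overlap each other. Of the 33469 promoters of the same length in the table, 33.1% held this motif on either strand, 14.2% held the box bound by TBP, 14.2% the TEAD core, 4.63% the AP-1 site, 21.1% the SMAD motif, and 1.64% a CArG box. Promoters were matched for 7 of the 10 genes, and not for Eln, Fbln1, and Mfap4. Fbln5 held 1 GC box and 1 TEAD core, Fbn1 1 SMAD motif, Fbn2 1 TEAD core, and Mfap5 none of the motifs. The GC content was 64.7% in Fbln2, 63.7% in Efemp1, and 71.0% in Efemp2, where the median of all promoters was 51.7%. Such matches describe these letters only.

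Fbln1 encodes fibulin-1, found in the elastic fiber core and in basement membranes. It lies at chr7:126096793-126176468 of rn6, plus strand, and its reads were not divided among its splice forms. It was at 79.1, 78.6, and 77.8 CPM for SASCs, 45.9, 44.9, and 46.2 CPM for PASCs, and 54.0, 59.2, and 66.5 CPM for EASCs. The groups did not overlap, with EASCs between PASCs and SASCs. The log2 fold change was -0.78 for PASCs (adjusted p = 4.64e-11, edgeR) and -0.39 for EASCs against SASCs (adjusted p = 7.52e-06), and 0.39 between EASCs and PASCs (adjusted p = 4.35e-05). The last did not pass with total counts in place of TMM (0.31, adjusted p = 0.227).

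Fbln5, the gene of fibulin-5, which binds tropoelastin and the crosslinking enzyme Loxl1, was the fibulin gene that differed least from SASCs. Located at chr6:125644797-125723957 of rn6, minus strand, it was at 77.4, 79.3, and 80.0 CPM for SASCs, 92.2, 93.0, and 106 CPM for PASCs, and 78.1, 76.8, and 87.0 CPM for EASCs. PASCs were above all other samples, whereas EASCs and SASCs overlapped. Its log2 fold change in PASCs was 0.30 against SASCs (standard error 0.0634, adjusted p = 1.60e-04, edgeR). Against PASCs, EASCs stood at -0.27 (adjusted p = 0.00162), which did not pass with total counts (-0.35, adjusted p = 0.138). Between EASCs and SASCs it was 0.03, with a 95% confidence interval of -0.10 to 0.16 (adjusted p = 0.675). With total counts the values against SASCs were -0.02 for PASCs (adjusted p = 0.931) and -0.37 for EASCs (adjusted p = 0.0352), where the medians of all genes were -0.33 and -0.39.

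Within a sample, the share of each gene in the summed FPKM of the 5 fibulin genes does not depend on how libraries are scaled. Fbln2 made up 16.1%, 15.1%, and 15.4% of it in SASCs, 78.8%, 77.8%, and 78.9% for PASCs, and 76.2%, 76.3%, and 76.5% for EASCs. The share of Efemp2 went the other way, from 66.5% ± 0.468 for SASCs to 14.4% ± 0.617 for PASCs and 16.6% ± 0.381 for EASCs (SD, n = 3 each). Efemp1 held 5.13% ± 0.0994 for SASCs, 0.141% ± 0.00304 for PASCs, and 0.0503% ± 0.0182 for EASCs. No share overlapped between groups (two-sided exact permutation test, p = 0.1 for each, the smallest that 3 samples against 3 allow). This p-value follows from the lack of overlap and adds nothing to it. The shares add up to a whole, so a rise of Fbln2 by itself lowers the shares of the other genes. Fbln5 held 6.81% for SASCs and 4.25% for EASCs, although its level overlapped between these groups. The ratio of Fbln2 to Efemp2 per length was 0.234 ± 0.00854 for SASCs, 5.46 ± 0.271 for PASCs, and 4.597 ± 0.117 for EASCs. The summed level of the 5 genes was 407 ± 9.53 FPKM for SASCs, 696 ± 29.5 for PASCs, and 666 ± 33.3 for EASCs.

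**Figure D3:**
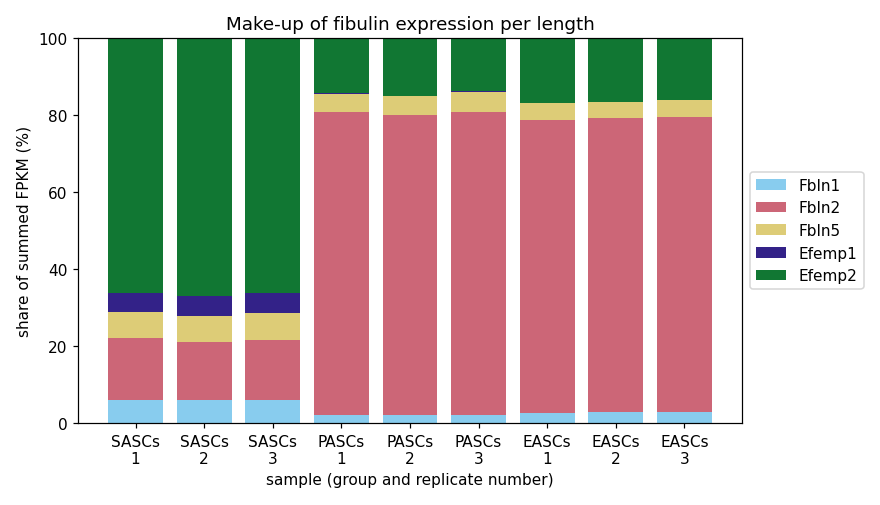
Share in percent (vertical axis) of each of 5 fibulin genes in their summed FPKM, as a stacked bar for each of the 9 samples (horizontal axis). Efemp2 takes 66.3% to 67.1% for SASCs, and Fbln2 takes 76.2% to 78.9% for PASCs and EASCs.

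Fbn1 encodes fibrillin-1, the main protein of microfibrils after birth and the gene mutated in Marfan syndrome. It lies at chr3:117569708-117766160 of rn6, minus strand. Its expression was 1180, 1192, and 1316 CPM for SASCs, 688, 642.5, and 803 CPM for PASCs, and 1201, 1201, and 1371 CPM for EASCs. PASCs were below every other sample, and SASCs and EASCs overlapped. Its log2 fold change in PASCs was -0.79 against SASCs (standard error 0.0718, adjusted p = 1.72e-10, edgeR), and EASCs were higher than PASCs by 0.82 (standard error 0.0718, adjusted p = 4.34e-10). Between EASCs and SASCs it was 0.03, with a 95% confidence interval of -0.11 to 0.18 (adjusted p = 0.695), and with total counts it was -0.37 (adjusted p = 0.0394), close to the median of all genes at -0.39.

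Fbn2, the gene of fibrillin-2, a microfibril protein made mainly in development, was far less abundant. It lies at chr18:53068495-53272254 of rn6, minus strand. It was at 8.79, 9.68, and 10.2 CPM for SASCs, 22.3, 19.0, and 24.6 CPM for PASCs, and 15.2, 17.1, and 16.9 CPM for EASCs. The 3 groups did not overlap, and PASCs were the highest. Its log2 fold change against SASCs was 1.198 for PASCs (standard error 0.107, adjusted p = 1.18e-10, edgeR) and 0.78 for EASCs (standard error 0.109, adjusted p = 4.34e-07), and that between EASCs and PASCs was -0.42 (adjusted p = 0.00218). With total counts it was 0.88 for PASCs and thus no DEG, and 0.38 for EASCs (adjusted p = 0.0558). Per length, Fbn2 made up 0.883% ± 0.0374 of the fibrillin expression in SASCs, 3.41% ± 0.151 for PASCs, and 1.47% ± 0.111 for EASCs (SD, n = 3 each), and these shares did not overlap between groups.

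Mfap5 encodes MAGP-2, a small glycoprotein bound to fibrillin microfibrils. It lies at chr4:155313671-155336228 of rn6, plus strand, and was at 314, 333, and 328 CPM for SASCs, 159.5, 169, and 161 CPM for PASCs, and 160.4, 166, and 166 CPM for EASCs. SASCs were above all other samples, and PASCs and EASCs overlapped. Its log2 fold change was -0.99 for PASCs (standard error 0.0525, adjusted p = 1.55e-15, edgeR) and -0.98 for EASCs (standard error 0.0525, adjusted p = 1.82e-15). These correspond to 1.99 and 1.98 times lower expression, just short of the fold change of a DEG, and Mfap5 was counted as a DEG in both by DESeq2 and with total counts. Between EASCs and PASCs the log2 fold change was 0.01, with a 95% confidence interval of -0.10 to 0.12. Among the 9 genes, Efemp2 had the profile over the 9 samples most like that of Mfap5.

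Mfap4, the gene of a fibrinogen-related protein of elastic fibers, lies at chr10:47765464-47768484 of rn6, plus strand. It was listed at 0 in all 9 samples, and a level up to the 0.104 to 0.159 CPM of 3 counts could not be detected.

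Eln lies at chr12:24978478-25021864 of rn6, plus strand. Its counts were low, with 66, 35, and 40 for SASCs, 66, 38, and 30 for PASCs, and 117, 121, and 121 for EASCs. These were 2.29, 1.49, and 1.95 CPM for SASCs, 2.52, 1.42, and 1.59 CPM for PASCs, and 4.90, 4.91, and 5.41 CPM for EASCs. Every EASCs sample was above every other sample, and SASCs and PASCs overlapped. Its log2 fold change was 1.40 for EASCs over SASCs (standard error 0.228, adjusted p = 5.13e-06, edgeR) and 1.45 for EASCs over PASCs (standard error 0.229, adjusted p = 1.38e-05). With total counts the first of these stood at 1.00 (adjusted p = 6.11e-04), which by a small margin was no longer a DEG. Between PASCs and SASCs it was -0.05 with a wide 95% confidence interval of -0.57 to 0.47 (edgeR, adjusted p = 0.870), so that a change of either sign within this range could not be resolved in these samples. Eln overlaps LOC102553484 on the other strand, which had 1 to 7 counts. For each unit of Eln per length there were 240.3 ± 52.2 units of Fbn1 for SASCs, 148.5 ± 44.2 for PASCs, and 89.7 ± 1.72 for EASCs (SD, n = 3 each).

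Other genes of the pathway were taken from 5 lists of 39 symbols in all, of which 38 were in the table and 35 were tested. In EASCs against SASCs the 35 genes held 12 upregulated and 5 downregulated DEGs, and in PASCs 9 and 6. With total counts they held 10 and 9 in EASCs, and in PASCs 5 and 11, where all genes held 1349 and 3425 in EASCs and 1262 and 3165 in PASCs under the same scaling. With TMM, the shares over all tested genes were 13.6% and 14.2% for EASCs and 12% and 14.9% for PASCs. Between EASCs and PASCs, 4 of the 35 genes were DEGs, all higher in EASCs, where 5.19% of all genes were. The median log2 fold change of the 35 genes was 0.06 for EASCs and 0.08 for PASCs against SASCs, and 0.30 between EASCs and PASCs.

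The lysyl oxidases, which crosslink elastin and collagen, changed in opposite directions. Lox was at 481 ± 10.3 CPM for SASCs, 2392 ± 246 for PASCs, and 2853 ± 60 for EASCs (SD, n = 3 each), with log2 fold changes against SASCs of 2.31 (adjusted p = 1.92e-21, edgeR) and 2.57 (adjusted p = 2.06e-22). Loxl2 rose by 1.75 in PASCs and 2.57 in EASCs on the log2 scale. Loxl4 fell by 1.12 and 1.54. Loxl1, the partner of fibulin-5, fell by 1.17 in PASCs, and its value of -0.99 for EASCs passed the p-value but not the fold change. Loxl3 was no DEG in any comparison, and it overlaps Htra2 on the other strand, which had 572 to 1052 counts against at least 1328 of Loxl3, so its values are uncertain. The 5 genes thus held 2 upregulated DEGs and 1 downregulated DEG in EASCs and 2 of each in PASCs, and their median, which in both is the value of Loxl3, was -0.54 and 0.43. Lox and Loxl2 overlap LOC681584 and LOC103693875 respectively, which had 236 to 1671 and 69 to 354 counts, and Loxl4 overlaps R3hcc1l, which had 198 to 460 counts against at least 330 of Loxl4, so its values are uncertain.

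Of 14 genes that bind microfibrils or take part in their assembly, 13 were tested, with 2 upregulated and 2 downregulated DEGs in EASCs and 1 and 2 in PASCs. Their median log2 fold change was -0.25 for EASCs and -0.41 for PASCs, and it stayed so with Mfap2 at its bound. Ltbp2, a latent TGF-beta binding protein that associates with fibrillin-1, rose by 1.73 in EASCs and 1.27 in PASCs on the log2 scale. Ltbp4, which helps fibulin-5 to deposit elastin, was at 3.44, 4.63, and 4.003 CPM for SASCs, 6.50, 6.92, and 6.72 CPM for PASCs, and 20.9, 21.0, and 23.2 CPM for EASCs. Its samples did not overlap between groups, with log2 fold changes of 2.44 for EASCs over SASCs (adjusted p = 4.49e-16, edgeR) and 1.69 for EASCs over PASCs (adjusted p = 2.44e-12). Mfap2, the gene of MAGP-1, had 61, 32, and 29 counts for SASCs, 0 for each PASCs sample, and 4, 0, and 0 for EASCs. It was at least 12.7 times lower in PASCs than in SASCs, taking 3 counts for each library at 0, and was a downregulated DEG in both PASCs (adjusted p = 1.12e-07) and EASCs (adjusted p = 1.11e-06). Adamtsl2, a fibrillin-binding protein, fell by 2.55 in PASCs and 1.22 in EASCs on the log2 scale, from 24 to 28 counts for SASCs, and it overlaps Wdr5, a gene with 709 to 1157 counts, so its values are uncertain.

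Of the 3 further fibulins, Hmcn2 was not tested. Hmcn1, the gene of the very large hemicentin-1, was at 7.76 CPM for SASCs, 17.2 CPM for PASCs, and 38.2 CPM for EASCs, with log2 fold changes of 1.14 and 2.30 against SASCs and 1.16 between EASCs and PASCs (adjusted p = 4.00e-09, 5.60e-16, and 1.23e-09, edgeR). Fbln7 rose by 1.16 in EASCs (adjusted p = 0.0190) from 8 to 17 counts for SASCs, and its 0.62 for PASCs did not pass (adjusted p = 0.222). The median of both tested genes was 1.73 for EASCs and 0.88 for PASCs.

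Of 10 symbols of elastin-degrading proteases, 8 were tested, with 3 upregulated and 2 downregulated DEGs in either comparison with SASCs and a median of -0.23 for EASCs and 0.06 for PASCs. Mmp2, a gelatinase, fell from 4337 CPM for SASCs to 830 for PASCs and 567 for EASCs, log2 fold changes of -2.39 and -2.94 (adjusted p = 5.18e-23 and 7.08e-25, edgeR). Mmp14, which activates it at the cell surface, fell by 2.65 and 1.96. Mmp12, the elastase of macrophages, rose from 11.7 CPM for SASCs to 50.2 for PASCs and 80.7 for EASCs, by 2.098 and 2.78 (adjusted p = 1.01e-19 and 1.30e-22). Ctss, a cathepsin of antigen-presenting cells, rose by 1.06 in PASCs and 2.17 in EASCs, and by 1.11 between EASCs and PASCs. The summed levels of the leukocyte, mesothelial, and smooth muscle markers, given above, had the same order of groups as Mmp12 and Ctss, and their part in these values was not tested. Mmp7, at 0 to 8 counts for SASCs, rose by 2.02 in PASCs (adjusted p = 0.00771). Its rise of 1.66 in EASCs (adjusted p = 0.0298, edgeR) also made it a DEG, but there its samples overlapped those of SASCs. Mmp2 overlaps LOC102549037 on the other strand, which had 1344 to 14034 counts.

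All 7 receptor genes were tested, with 3 upregulated and 0 downregulated DEGs in EASCs (edgeR, with Glb1, whose splice form is the elastin-binding protein, lower at an adjusted p of 6.14e-07) and 2 and 0 in PASCs, and with a median of 0.85 and 0.62. In EASCs 6 of the 7 passed the adjusted p at any fold change, and in PASCs 7, where 69.7% and 69.2% of all genes did. Of the 7 in PASCs, Itga8 (-0.92, adjusted p = 1.12e-13, edgeR) and Glb1 (-0.71, adjusted p = 2.58e-11) were lower than in SASCs. Glb1 overlaps LOC102555172 on the same strand, which had 294 to 466 counts against at least 1112 of Glb1, so its values are uncertain. The reads of Glb1 were not divided among its splice forms. Itgb3, which pairs with the alpha v integrin that binds fibrillin-1, rose by 3.14 in EASCs and 2.81 in PASCs on the log2 scale. Itga5, of the fibronectin receptor, rose by 1.76 and 1.16, and Itgb1, its partner, rose by 1.497 in EASCs. Itga8 had a log2 fold change of 1.68 for EASCs over PASCs (adjusted p = 2.09e-18).

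**Figure D4:**
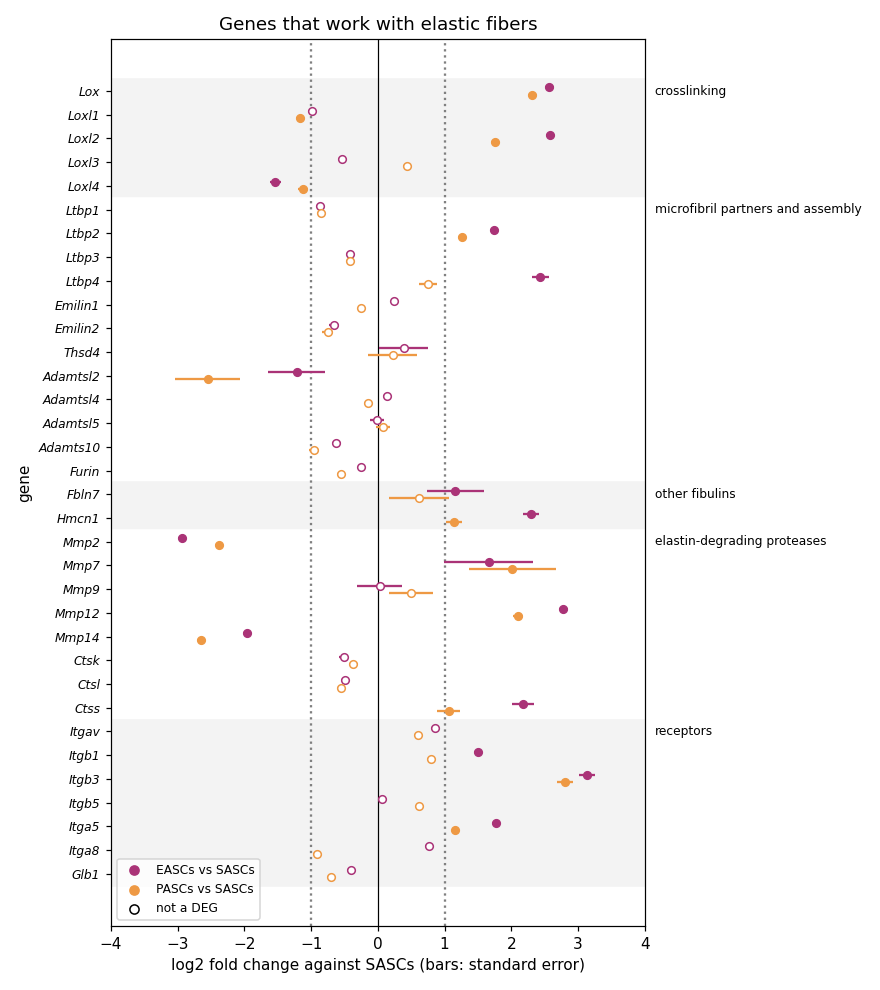
Log2 fold changes against SASCs (horizontal axis) of 34 tested genes in 5 lists (vertical axis) for EASCs and PASCs, with standard errors from edgeR. Filled points are DEGs and open points are not, dotted lines mark a fold change of 2, and Mfap2 is left out because it was at 0 in PASCs. Lox, Loxl2, Ltbp2, Mmp12, and Itgb3 lie to the right and Mmp2, Mmp14, and Loxl4 to the left in both.

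Profiles over the 9 samples were compared by the root mean square difference of log2 CPM, after each gene was centred on its mean. Among 8566 genes at 10 CPM or more, those most like Eln were St6gal1 (0.169), Tp53i11 (0.196), and Hist1h2bh (0.207), all highest in EASCs. For Fbn1 they were Osmr (0.0820), Prelp (0.0874), and Col4a2 (0.106), which were lowest in PASCs, and for Fbln1 they were Plbd2 (0.0480), Sh2b2 (0.0686), and Casp4 (0.0696). This is a description over 3 groups of 3 samples.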

How the data were processed

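RNA of 9 samples, 3 each of SASCs, PASCs, and EASCs, was grouped and numbered by the labels. The authors trimmed the paired-end reads, aligned them with TopHat, and deposited whole-number counts for each gene in each sample, not normalized. The methods name rn6, while the submitters' processing notes name rn5. Gene positions are those of the table, which run past the end of chromosome X in rn5 and are given as rn6. The counting tool, the use of strand, and the treatment of reads matching several genes are not given in the sources used here, so overlapping genes may share reads, also across strands. Of the deposited values and annotation, the counts, gene lengths, gene types, positions, strands, and gene identifiers were used.

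Counts were scaled by TMM (factors 0.740 to 1.23), filtered with filterByExpr, and tested for all 14770 genes left by the quasi-likelihood test of edgeR 4.0.16 in R 4.3.3, in one model of all 9 samples without a block. The study used DEGseq, and edgeR was chosen here because it takes up the spread between samples. Benjamini-Hochberg adjustment ran over all tested genes of 1 comparison at a time, and standard errors are the log2 fold change over the root of the F statistic. A DEG needed an adjusted p under 0.05 together with more than a 2-fold difference, as in the study. FPKM here is CPM after TMM per kilobase of the deposited gene length. No library was a copy of another, since chi-square values over genes were at least 6.15 times their degrees of freedom for every pair of replicates. The fit was tested on simulated counts for EASCs against SASCs, where 200 of 200 genes given a 4-fold change among 14525 were recovered with 0 false calls. The changed genes were drawn from well-counted ones, and all genes had the same simulated spread. The simulation therefore does not cover genes at few counts or changes near 2-fold.

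The 10 genes and all lists were chosen with earlier results of these data known. All 10 genes are named, and of each list of other genes at most 4 DEGs with the largest change in each comparison, while Loxl3 and Glb1 are named outside this rule, after their values were seen. Alternatives were DESeq2 1.42.0, no filter, only the samples compared, the replicate number as a block, total counts, no rRNA genes, no fold threshold, and each sample left out in turn. The result of 1 list of cell type markers is not reported here.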

Additional observations from a re-analysis of the deposited data

How the results depend on the processing

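Across 15 other settings that kept the fold threshold, the calls of Fbln2, Efemp1, and Efemp2 in both comparisons with SASCs were the same in all 15, and those of Eln in EASCs and Fbn2 in PASCs in 14, the exception being total counts. Mfap5 became a DEG in 3 of them in EASCs (DESeq2, total counts, and without SASCs replicate 1) and 4 in PASCs (also without PASCs replicate 2), and Fbn1 and Fbln1 in PASCs with total counts. With an adjusted p alone at any fold change, the DEGs among the 10 genes numbered 7 in EASCs, 8 in PASCs, and 7 between EASCs and PASCs, those among the related genes 31, 31, and 23, and those among all genes 10298, 10227, and 4530. Total counts, under which the medians of all genes moved to -0.39, -0.33, and -0.08, gave -0.37 for Fbn1 and -0.37 for Fbln5 in EASCs against SASCs, -0.0187 for Fbln5 in PASCs against SASCs, and -0.0580 for Mfap5 between EASCs and PASCs, all of the other sign than with TMM. Leaving out each sample in turn also turned the sign of values near 0. Fbn1 ranged from -0.0290 to 0.0834 and Fbln5 from -0.0221 to 0.0693 in EASCs, both below 0 without EASCs replicate 3. Eln in PASCs ranged from -0.36 to 0.13, above 0 without SASCs replicate 1 (0.12), PASCs replicate 2 (0.13), or PASCs replicate 3 (0.03), and Mfap5 between EASCs and PASCs from -0.0063 to 0.0366, below 0 without PASCs replicate 1. In these fits the DEGs among the 10 genes numbered 4 to 5, 4 to 5, and 2. Samples that share a replicate number share no stated source, their deviations correlated between -0.0252 and 0.0590, and 4 of 9 correlated best with their own number, so the number was not taken as a pairing. With the replicate block the DEGs among the 10 genes were 4, 4, and 2 and those among all genes 4061, 3944, and 1067. Counts were low for Eln and, in EASCs, for Efemp1.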
